A study of Mus musculus with 15 samples.

Results

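Serpins are a family of proteins that mostly inhibit proteases, and 64 serpin genes were followed in the whole epididymis of mice that differed in the number of intact Plag1 alleles. The members are the rows of the count table whose mouse symbol is Serpin, a clade letter from a to i, a number and at most a further letter. They make up 64 of the 41591 genes in the table. An inhibitory serpin offers a flexible loop to a protease as bait, and when the loop is cut the serpin snaps shut and traps the protease in a covalent complex. Some members have lost this activity and act as collagen chaperone, hormone carrier or growth-restraining factor. In the epididymis, the duct in which sperm mature and are stored, secreted serpins are among the proteins that epithelial cells release into the lumen, where proteolysis of sperm surface proteins is controlled.

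RNA was taken from 5 knockout (KO), 5 heterozygous (HET) and 5 wild-type (WT) animals for Plag1, a transcription factor of the zinc finger class. All 15 mice were aged 7 weeks, the strain label of every sample reads Brown Swiss, and each library carries its own number, read here as 1 animal. The design text gives the comparison of the 3 genotypes in this organ as the aim. The labels do not say where the knockout allele is cut, in which cells it acts, or whether animals shared litters or days, and the epididymides were opened and rinsed to remove sperm. Libraries held 25.3 to 42 M counts in KO, 23.6 to 33.8 M in HET and 20.3 to 27.8 M in WT.

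Plag1 transcript was still present in KO, at 8.32 ± 0.972 CPM (CPM, the count relative to the scaled library total; SD, n = 5) with a range of 6.99 to 9.36, against 10.1 ± 1.38 CPM in HET and 12.7 ± 0.869 CPM in WT with a WT range of 11.9 to 14. Its log2 fold change in KO against WT was -0.61 ± 0.10 (SE; edgeR adjusted p = 0.00493). Markers of the principal cells that line the duct summed to 37814 to 57720 CPM in KO, 48122 to 58921 CPM in HET libraries and 47753 to 55298 CPM in WT, so the labelled tissue was present in each library. Some libraries stood apart. KO-738 had WT-like levels of many serpins described here, KO-739 held transcripts of skeletal muscle, and KO-694, KO-695 and KO-696 carry animal numbers below 700 while all 5 WT animals are numbered above 700. What the number means is not given in the labels. For each serpin that differed between KO and WT (edgeR adjusted p under 0.05), it is given whether this held without each of these libraries. Log2 fold changes without these libraries are given only for some serpins.

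Of the 64 serpins, 28 had enough counts to be tested among 19388 genes, 26 had some counts but too few, and 10 had no count in any library. By mean level over all libraries, 23 were above 1 CPM, 12 above 10 CPM and 5 above 100 CPM. The highest member that was not tested had a mean of 0.257 CPM and the lowest that was tested 0.339 CPM. Clade A, the secreted antiproteases and hormone carriers, had 25 members of which 11 were tested. Clade B, which acts mostly inside cells, had 28 members of which 9 were tested and 8 had no count. All 3 members of clade E, both members of clade F, the single members of clades G and H and 1 of the 2 members of clade I were tested. Serpinc1 (antithrombin) and Serpind1 (heparin cofactor II), the only members of clades C and D and both mainly liver products, were too low to test. Serpinc1 averaged 0.234 ± 0.0372 CPM in KO, 0.218 ± 0.157 CPM in HET and 0.318 ± 0.122 CPM in WT, and Serpind1 averaged 0.112 ± 0.0845 CPM in KO, 0.0934 ± 0.0323 CPM in HET and 0.1 ± 0.0613 CPM in WT (SD, n = 5 each).

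Most serpin counts came from clade A. It summed to 3680 ± 1014 CPM in KO, 4777 ± 260.0 CPM in HET and 4863 ± 298 CPM in WT (SD, n = 5 each), which is 87.2% of the serpin counts in WT. In WT, clade B held 3.73%, clade F 2.92%, clade E 2.82%, clade G 2.42% and clade H 0.884% of serpin counts. The members of the larger clades sit side by side in the genome (GRCm38.p6). On chromosome 12, 24 clade A genes lie within 798 kb, of which 11 Serpina3 genes fill 302 kb. Clade B lies in a block of 12 genes over 748 kb on chromosome 1 and in a block of 16 genes over 1161 kb on chromosome 13. Within a block levels differed widely: of the 24 clade A genes on chromosome 12 only 10 were tested, and those ran from Serpina3m at 0.595 ± 0.194 CPM to Serpina1f at 3135 ± 227 CPM in WT.

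**Figure D1:**
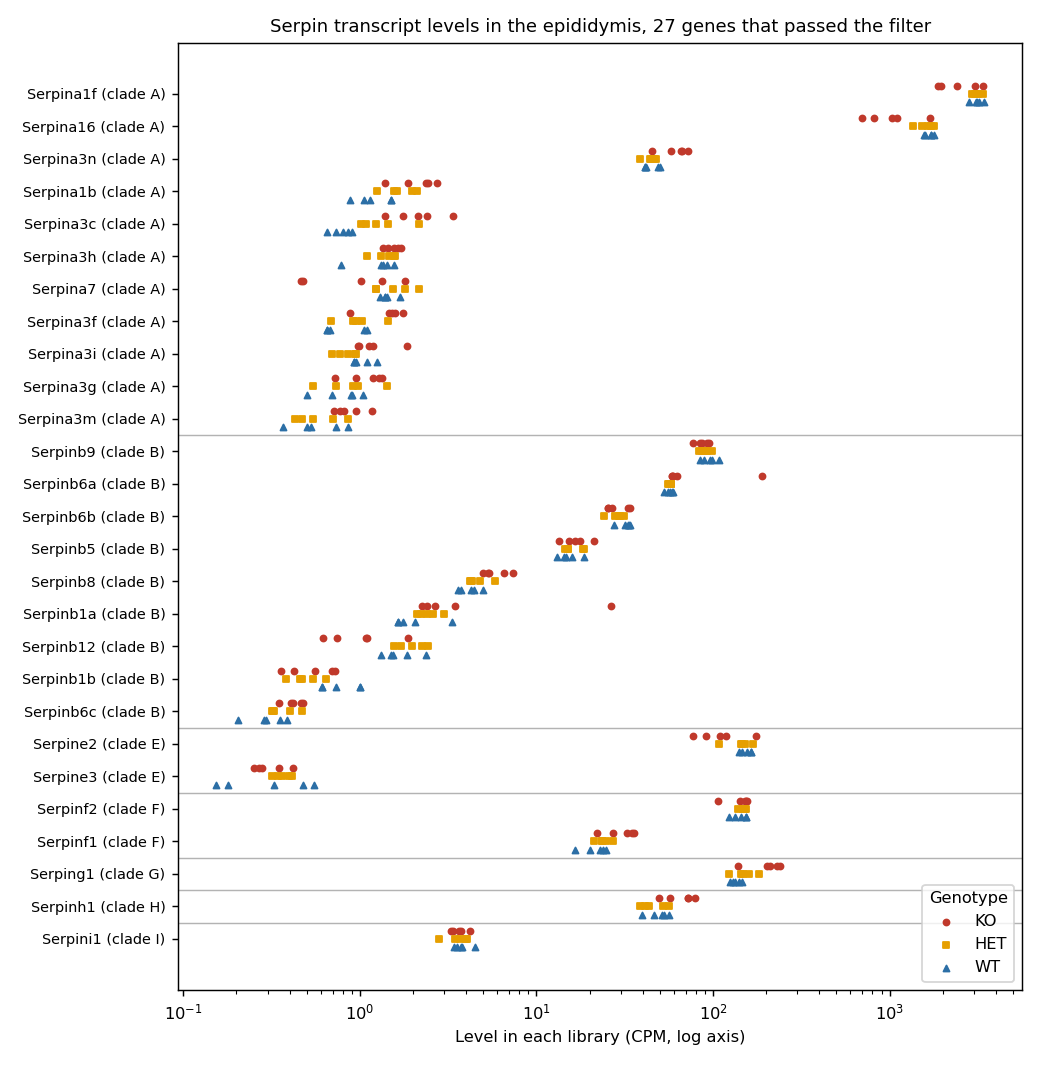
Level of 27 of the 28 tested serpins in every library, in CPM on a log axis, grouped by clade, with KO, HET and WT libraries of 5 animals each as separate symbols. Serpina1f and Serpina16 lie far to the right of all others, and a single KO library lies apart for Serpinb6a (190.2 CPM) and Serpinb1a (26.3 CPM).

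The family's total was set by a pair of genes, Serpina1f and Serpina16. Together they held 79.8 ± 4.33% of all serpin counts in KO, 85.9 ± 0.803% in HET and 86.2 ± 0.675% in WT (SD, n = 5 each). The sum of all serpins was 4479 ± 1027 CPM in KO, with libraries from 3445 to 5905, and averaged 5497 ± 268 CPM in HET and 5580 ± 306 CPM in WT. Without the pair, the other serpins summed to 873 ± 86.1 CPM in KO, 775 ± 35.7 CPM in HET and 770.4 ± 14.9 CPM in WT. The pair was thus lower and the remainder higher in the KO mean, and the KO libraries were more spread than the others; sums carry no test here.

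Per kilobase of exon, the order of levels was led by the same pair. Serpina1f reached 796 ± 208 RPKM in KO, 979 ± 52.7 RPKM in HET and 984 ± 71.4 RPKM in WT, and Serpina16 reached 677 ± 246 RPKM in KO, 1014 ± 105 RPKM in HET and 1059 ± 56.8 RPKM in WT (CPM per kilobase of exon; SD, n = 5). In KO and in HET the means of the 2 genes differed by less than either SD. Next came Serping1 with 87.7 ± 16.8 RPKM in KO, 64.9 ± 9.23 RPKM in HET and 58 ± 3.74 RPKM in WT, and Serpinf2 with 61.2 ± 8.72 RPKM in KO, 63.5 ± 2.47 RPKM in HET and 60.8 ± 5.6 RPKM in WT. In WT the means of Serping1 and Serpinf2 differed by less than either SD. In KO the Serping1 mean was above that of Serpinf2 by more than either SD. In KO the next means were those of Serpina3n, Serpinh1, Serpinb9, Serpinb6a and Serpine2, between 29.7 and 13.8 RPKM. In WT Serpinb9, Serpina3n, Serpinh1 and Serpine2 followed, between 27.3 and 18.6 RPKM.

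In KO against WT, 6 of the 28 tested serpins were higher and 1 was lower (edgeR quasi-likelihood test, adjusted p under 0.05 over all genes). The 6 are Serpina1b, Serpina3c, Serpina3n, Serpinb8, Serpinf1 and Serping1, and the 1 is Serpina16. Over all 19388 genes 4.4% were called higher and 1.6% lower, or 6% in either direction, while the 7 serpins are 25% of those tested. The median log2 fold change was 0.32 over the serpins and -0.01 over all genes, and 18 of 28 serpins (64.3%) had a positive value, against 46.8% of all genes. At an unadjusted p under 0.05, 11 serpins were higher and 5 lower, against 13.8% and 9.78% of all genes. In bulk tissue, fewer cells of a type and less RNA per cell cannot be told apart, and this holds for each difference below. Nothing in the labels says how the animals of a genotype are related. The p-values weigh each difference against a spread between animals estimated from all 15 libraries together, and the animals are taken as independent. In a fit of the KO and WT libraries alone, 2 serpins were called higher (Serpina3c and Serping1) and 0 lower.

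**Figure D2:**
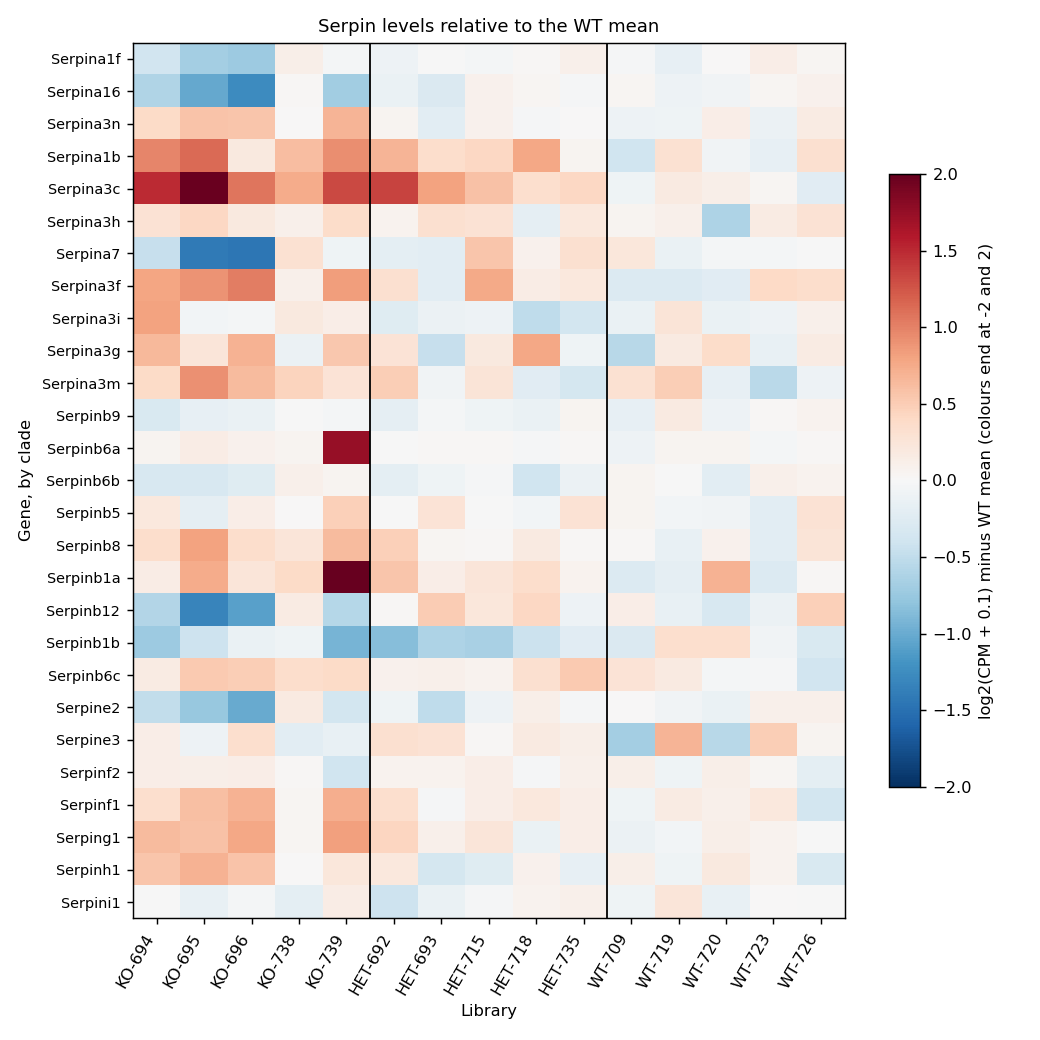
Levels of 27 of the 28 tested serpins (rows, by clade) in the 15 libraries (columns; KO left, then HET, then WT) as log2(CPM + 0.1) minus the WT mean, with colours ending at -2 and 2. The Serpina3c row is red in all 5 KO libraries, while the KO-738 column is pale for most genes, among them Serpina16, Serpina3n and Serping1.

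Serpina16 (NCBI Gene 194604; chr12:103668808-103676841, minus strand), whose rat counterpart is an epididymal secreted serpin, was the only member called lower. It had 1098, 820.3, 699.7, 1705 and 1033 CPM in KO-694, KO-695, KO-696, KO-738 and KO-739, against 1718, 1564, 1596, 1722 and 1774 CPM in the WT libraries. All KO libraries but KO-738 were below every WT library, and KO-738 lay inside the WT range, so the groups overlap. The HET libraries held 1362 to 1783 CPM. KO against WT gave a log2 fold change of -0.64 ± 0.18 (edgeR adjusted p = 0.0435), or 0.64-fold.

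By fits that leave out 1 library, that call was the least stable of the 7. Without KO-738 the log2 fold change was -0.87 (edgeR adjusted p = 0.000286), but leaving out any 1 of the other 14 libraries ended the call. With the number range as a term in the fit it was -0.41 (edgeR adjusted p = 0.207). Serpina16 averaged 873 CPM in the KO animals below 700 and 1369 CPM in those above. The KO animals above 700 are only KO-738 (1705 CPM) and KO-739 (1033 CPM). KO-739 lay within the range of the KO animals below 700, 699.7 to 1098 CPM. Among the 8 principal cell markers 0 were called in either direction, with a median log2 fold change of 0.05, and the lowest sum, 37814 CPM, belonged to KO-695; their part in the result was not tested.

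Serpina1f (NCBI Gene 68348; chr12:103688044-103695529, minus strand) is the next protein-coding gene along and is known in mouse as an epididymis-enriched, androgen-dependent serpin. It had 2397, 1960, 1891, 3397 and 3031 CPM in KO-694, KO-695, KO-696, KO-738 and KO-739, against 3091, 2803, 3129, 3429 and 3225 CPM in the WT libraries. The KO animals numbered below 700 were under every WT library, and the other KO animals were inside the WT range. Its log2 fold change was -0.31 ± 0.13 (edgeR adjusted p = 0.175). Without KO-738 it was -0.43 and was called lower (edgeR adjusted p = 0.0196), and among animals numbered 700 and above it was 0.04. With all libraries, limma voom called Serpina1f lower (-0.41, limma voom adjusted p = 0.0253) and DESeq2 did not (DESeq2 adjusted p = 0.135). Neither of these 2 genes shares a 50-base window of its longest transcript with another gene.

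The Serpina3 genes are mouse copies of a single human antiprotease gene, and 7 of the 11 were tested. All 7 had a positive log2 fold change in KO against WT, between 0.25 and 1.48, where 46.8% of all genes had a positive value. Of the 7, 2 were called, Serpina3c and Serpina3n, where 6% of all genes were called in either direction. The 7 genes share sequence. Between 4.25% (Serpina3c) and 24.4% (Serpina3h) of 50-base windows of their longest transcripts also occur in other genes. The counts of neighbours are thus not independent.

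Serpina3c (NCBI Gene 16625; chr12:104146907-104153929, minus strand), a kallikrein-binding serpin, showed the largest called change. It had 2.4, 3.38, 1.75, 1.38 and 2.12 CPM in the KO libraries, 2.15, 1.45, 1.23, 1.02 and 1.08 CPM in the HET libraries and 0.73, 0.903, 0.857, 0.804 and 0.652 CPM in the WT libraries. Every KO library and every HET library was above every WT library, and KO and HET overlapped. With all libraries, the log2 fold change was 1.48 ± 0.25 in KO against WT (edgeR adjusted p = 0.00521), or 2.79-fold. Among the 28 tested serpins, Serpina3c was the 1 with every KO library above every WT library, as in 2.84% of all genes tested; 0 were lower without overlap, as 1.37% of all genes were. Its call held in 15 of 15 fits that leave out 1 library and with the number range as a term (1.10, edgeR adjusted p = 0.0441).

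Serpina3n (NCBI Gene 20716; chr12:104406646-104414334, plus strand), a secreted acute-phase inhibitor of granzyme B and elastase in mouse, was the most abundant Serpina3 gene. It had 58, 66.4, 65.9, 44.9 and 71.7 CPM in the KO libraries, against 41.4, 42, 49.1, 41.3 and 50 CPM in the WT libraries. All KO libraries but KO-738 were above all WT libraries, and KO-738 lay inside the WT range. The log2 fold change was 0.46 ± 0.11 (edgeR adjusted p = 0.0245), or 1.37-fold, and was called in 10 of 15 fits without 1 library, the exceptions being those without KO-695, KO-696, WT-709, WT-719 and WT-723. The other 5 tested Serpina3 genes averaged 0.885 to 1.54 CPM in KO and 0.595 to 1.28 CPM in WT. Serpina3f was nearest to a call at 0.80 ± 0.24 (edgeR adjusted p = 0.0564).

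The stretches just upstream of Serpina3c and Serpina3n are shown because both genes were called higher in KO against WT and are alike there. In HET against WT the 2 genes differed, with log2 fold changes of 0.82 ± 0.26 for Serpina3c and -0.02 ± 0.11 for Serpina3n. A link between the upstream stretches and the levels was not tested. The stretches are RefSeq sequences of GRCm38.p6, cut to the bases outside the annotated gene, chr12:104153930-104154122 on the minus strand and chr12:104406458-104406645 on the plus strand. Over 188 aligned bases 174 were identical (92.6%), and the capitals mark the 14 bases that differ and those with no partner in the other stretch. The upstream stretches of Serpina3b, Serpina3f, Serpina3g and Serpina3i matched that of Serpina3c at 70.7% to 75.6% of 150 to 183 aligned bases. The stretch of Serpina3a aligned with it over only 54 bases, of which 63% were identical.
Serpina3c: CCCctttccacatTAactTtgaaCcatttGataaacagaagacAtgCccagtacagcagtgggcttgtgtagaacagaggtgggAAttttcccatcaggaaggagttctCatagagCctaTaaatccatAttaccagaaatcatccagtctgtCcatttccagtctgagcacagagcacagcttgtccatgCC
Serpina3n: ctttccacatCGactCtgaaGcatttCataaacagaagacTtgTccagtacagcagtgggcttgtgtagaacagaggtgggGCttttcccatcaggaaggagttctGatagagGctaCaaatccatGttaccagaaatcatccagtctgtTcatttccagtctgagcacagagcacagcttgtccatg

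Serpina1b (NCBI Gene 20701; chr12:103728156-103738189, minus strand) is one of the mouse copies of alpha-antitrypsin, the main blood inhibitor of neutrophil elastase. It had 2.44, 2.74, 1.39, 1.88 and 2.36 CPM in the KO libraries, against 0.883, 1.5, 1.14, 1.06 and 1.51 CPM in the WT libraries. All KO libraries but KO-696 were above every WT library. The difference on the log2 scale was 0.83 ± 0.21 (edgeR adjusted p = 0.0328), or 1.77-fold, and was called in 9 of 15 fits without 1 library, the exceptions being those without KO-694, KO-695, KO-739, WT-709, WT-720 and WT-723. Of its 50-base transcript windows 35.8% occur in other genes, 29.6% in Serpina1d, so its count is uncertain; Serpina1d itself averaged 0.156 CPM in KO, 0.181 CPM in HET and 0.197 CPM in WT.

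Other clade A members known from blood or reproduction were low. Serpina5, the protein C inhibitor that male mice need for fertility, had 85 counts in all 15 libraries together and was not tested. Serpina7, the thyroxine carrier on the X chromosome, averaged 1.01 ± 0.57 CPM in KO, 1.59 ± 0.394 CPM in HET and 1.44 ± 0.147 CPM in WT. Its log2 fold change of -0.52 ± 0.31 in KO against WT was not called (edgeR adjusted p = 0.339).

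Serping1 (NCBI Gene 12258; chr2:84765360-84775444, minus strand), the C1 inhibitor that restrains the first proteases of the complement cascade and plasma kallikrein, rose in KO. It had 209, 203, 231, 139 and 238 CPM in the KO libraries, 181, 144, 159.8, 123 and 147 CPM in the HET libraries and 124, 129.7, 146, 141 and 134 CPM in the WT libraries. All KO libraries except KO-738 were above all HET and all WT libraries. The log2 fold change was 0.60 ± 0.12 (edgeR adjusted p = 0.0162), or 1.51-fold, and was called in 13 of 15 fits without 1 library, the exceptions being those without KO-696 and WT-709. With the number range as a term it was 0.48 and no longer called (edgeR adjusted p = 0.107).

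Serpinf1 (NCBI Gene 20317; chr11:75410029-75422623, minus strand) encodes pigment epithelium-derived factor, a secreted serpin without protease-inhibiting activity that restrains blood vessel growth. It had 27, 32.5, 34.9, 22.1 and 35.5 CPM in the KO libraries, against 20.1, 23.9, 22.9, 24.8 and 16.5 CPM in the WT libraries. KO-738 again lay inside the WT range and the other KO libraries above it. The log2 fold change was 0.49 ± 0.13 (edgeR adjusted p = 0.038), or 1.41-fold, and was called in 3 of 15 fits without 1 library, those without KO-738, HET-692 or HET-693. Its neighbour Serpinf2 (NCBI Gene 18816), which encodes the plasmin inhibitor antiplasmin, averaged 142 ± 20.3 CPM in KO, 148 ± 5.74 CPM in HET and 141 ± 13 CPM in WT, with a log2 fold change of 0.01 ± 0.09 in KO against WT (edgeR adjusted p = 0.959).

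Serpinh1 (NCBI Gene 12406; chr7:99345375-99353239, minus strand) encodes a chaperone that binds procollagen in the endoplasmic reticulum and inhibits no protease. It had 71.8, 79.1, 72.3, 49.2 and 57 CPM in the KO libraries, against 53, 46.3, 56, 51.5 and 39.6 CPM in the WT libraries. The KO libraries except KO-738 were above all WT libraries, and KO-738 lay inside the WT range. The log2 fold change of 0.42 ± 0.14 was not called (edgeR adjusted p = 0.0813) and was called without KO-738 (0.51, edgeR adjusted p = 0.0179). DESeq2 and limma voom called Serpinh1 higher in KO against WT with all libraries. Of 19 collagen chains and collagen-processing genes, 11 were called higher in KO and 0 lower, where 4.4% and 1.6% of all genes were. The median log2 fold change of the 19 was 0.52. Among them Col1a2 rose by 0.91 and Lox, the collagen cross-linking enzyme, by 0.69, whereas P4hb had 0.05 and Ppib 0.02 without a call.

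Most connective tissue, vessel and macrophage markers were also called higher in KO against WT, where 4.4% of all genes were called higher and 1.6% lower. Of 8 fibroblast markers 6 were called higher and 0 lower, and they summed to 1297 to 2491 CPM in KO, 1239 to 1483 CPM in HET libraries and 1082 to 1429 CPM in WT, with KO-738 at 1297. Of 7 endothelial markers 5 were called higher and 0 lower, with sums of 169.7 to 233 CPM in KO, 120.4 to 159 CPM in HET libraries and 117 to 141 CPM in WT. The lowest KO sum, 169.7 CPM, was that of KO-738, so there the endothelial sum was above every HET and WT library. Of 8 macrophage markers 6 were called higher and 0 lower, with sums of 99.4 to 169 CPM in KO, 95.2 to 111 CPM in HET libraries and 80.4 to 99.4 CPM in WT. KO-738 had a macrophage sum of 99.4 CPM. No marker in these 3 lists was at 0 in all libraries. Of 9 germ cell markers 4 were called higher, with sums of 39.1 to 191 CPM in KO, 56.1 to 99.4 CPM in HET libraries and 35.2 to 82.3 CPM in WT. Of the mesothelial markers 2 of 5 were called higher. The smooth muscle, basal cell, adipocyte, seminal vesicle and prostate, and blood lists held 0 calls. Only 3 of the 9 seminal vesicle and prostate markers and 4 of the 6 blood markers were tested. Their median log2 fold changes were 0.11, 0.15, 2.16, 1.09 and -0.06, in that order. Adipocyte sums were uneven, at 23.1, 90.9, 4.29, 32.5 and 9.07 CPM in KO-694, KO-695, KO-696, KO-738 and KO-739. The highest HET value was 21.1 CPM (HET-692), and the highest WT value was 20.1 CPM (WT-719). HET-692, WT-719 and KO-695 also had the most Serpina3c of their genotype, whereas KO-738 had the least in KO. The part of these cell types in the serpin differences was not tested.

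Clade E holds the inhibitors of the plasminogen activators. Serpine2 (NCBI Gene 20720; chr1:79794317-79858665, minus strand), a nexin that inhibits thrombin and urokinase, had 109, 91.3, 76.7, 175 and 119 CPM in the KO libraries, against 155, 146, 141, 165 and 165 CPM in the WT libraries. All KO libraries but KO-738 were below every WT library, and KO-738 was above every one. The log2 fold change was -0.44 ± 0.17 and was not called (edgeR adjusted p = 0.142), and without KO-738 it was -0.64 and called (edgeR adjusted p = 0.00436). Serpini1, which encodes the tissue plasminogen activator inhibitor neuroserpin, averaged 3.65 ± 0.351 CPM in KO, 3.59 ± 0.504 CPM in HET and 3.79 ± 0.412 CPM in WT.

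Of 35 genes listed as proteases that serpins inhibit, 25 were tested. In KO against WT 8 of the 25 were called higher and 0 lower, where 4.4% and 1.6% of all genes were. The median log2 fold change of the 25 was 0.01. Those called higher were Plat (tissue plasminogen activator, 0.85), the complement proteases C1ra (0.50) and C1s1 (0.52) that Serping1 inhibits, the lysosomal cathepsins Ctsb (0.23) and Ctss (0.52), the mast cell tryptase Tpsb2 (1.02), Casp1 (1.05) and Htra1 (0.52). Plau, the urokinase gene, had a log2 fold change of -0.38 and was not called (edgeR adjusted p = 0.109). Of 13 cofactors and clearance receptors 12 were tested and 1 was called higher, Vtn (0.78), which encodes vitronectin. The receptors that clear serpin complexes, Lrp1 (0.49, edgeR adjusted p = 0.0636) and Lrp2 (-0.46, edgeR adjusted p = 0.0683), were not called.

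**Figure D3:**
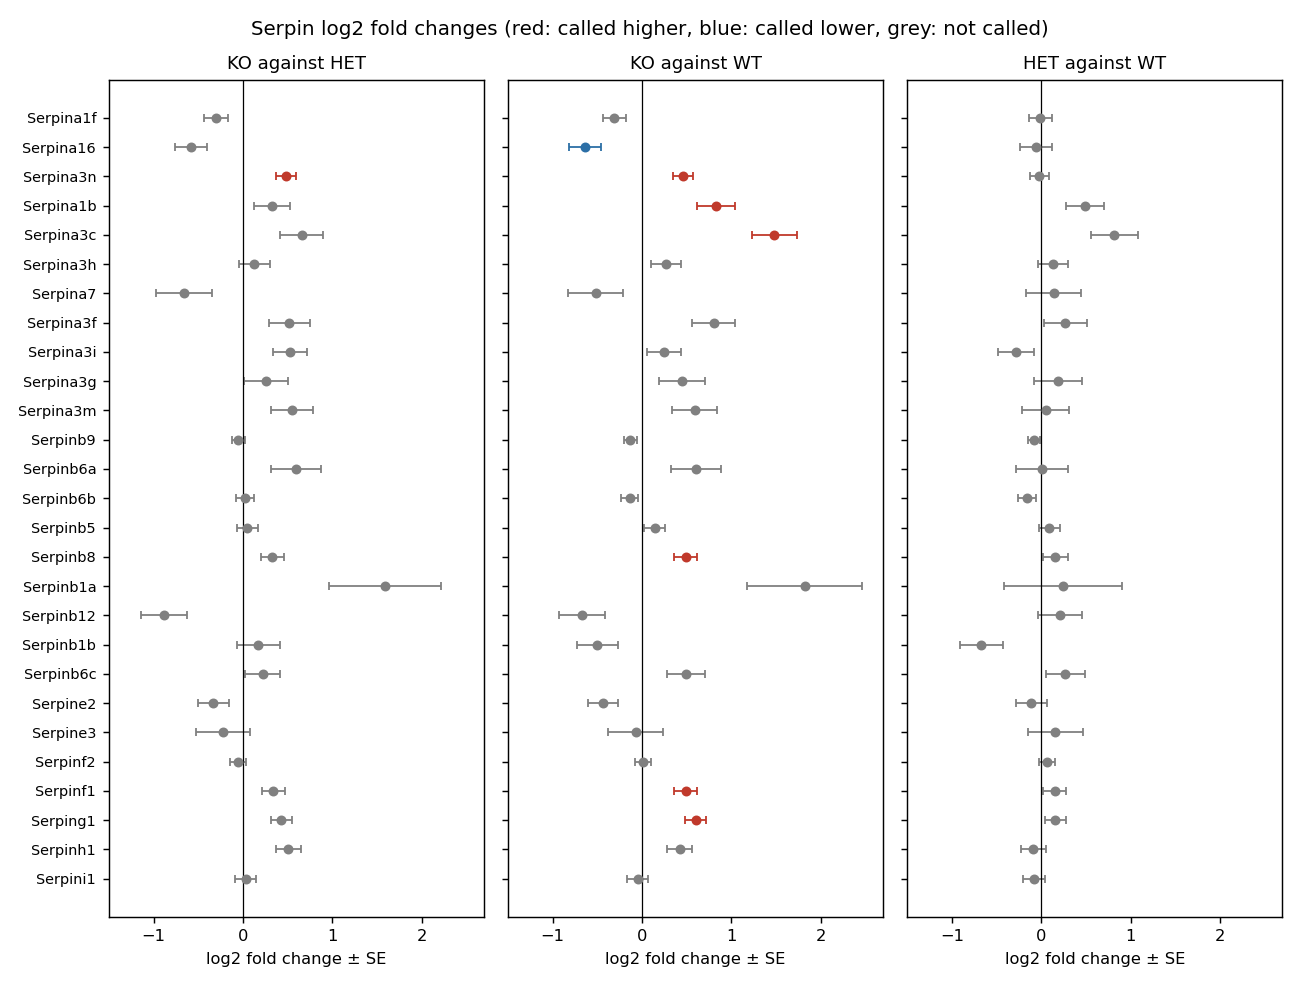
Log2 fold change with its SE (horizontal bars) for 27 of the 28 tested serpins in KO against HET (left), KO against WT (middle) and HET against WT (right), from 1 fit of 15 libraries; red and blue points are called higher and lower. The middle panel has 6 red points and 1 blue, the left panel 1 red (Serpina3n) and the right panel none.

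In clade B, the intracellular serpins, 1 of 9 tested members was called in KO against WT, where 6% of all genes were called in either direction. Serpinb8 (NCBI Gene 20725; chr1:107589926-107608978, plus strand), an inhibitor of furin in biochemical assays, had 5.38, 7.35, 5.33, 4.98 and 6.51 CPM in the KO libraries, against 4.26, 3.76, 4.43, 3.58 and 5.01 CPM in the WT libraries. Only KO-738 fell inside the WT range. Its log2 fold change was 0.49 ± 0.13 (edgeR adjusted p = 0.0432) and the KO mean was 140.4% of the WT mean. The call held in 3 of 15 fits without 1 library, those without KO-738, HET-692 or WT-726. Serpinb9, the inhibitor of granzyme B and the most abundant member of the clade, averaged 86.9 ± 6.91 CPM in KO, 90.1 ± 5.73 CPM in HET and 95.4 ± 9.39 CPM in WT, with a log2 fold change of -0.13 ± 0.07 (edgeR adjusted p = 0.267). Serpinb6b averaged 28.9 ± 4.28 CPM in KO, 28.5 ± 2.79 CPM in HET and 31.9 ± 2.66 CPM in WT, and its log2 fold change was -0.14 ± 0.10 (edgeR adjusted p = 0.411).

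A single library set the means of Serpinb1a and Serpinb6a in KO. Serpinb1a, an inhibitor of neutrophil elastase, had 2.24, 3.44, 2.4, 2.66 and 26.3 CPM in the KO libraries, against 1.65, 1.76, 3.32, 1.64 and 2.04 CPM in the WT libraries. Serpinb6a, an inhibitor of cathepsin G whose exons overlap Ripk1, Nqo2 and 1110046J04Rik on the opposite strand, had 58.5, 62.7, 59.7, 58.4 and 190.2 CPM in the KO libraries, against 52.5, 59, 58.7, 55.3 and 57.4 CPM in the WT libraries. In both genes KO-739 stood far above all other libraries. The log2 fold changes were 1.82 ± 0.64 for Serpinb1a (edgeR adjusted p = 0.101) and 0.60 ± 0.28 for Serpinb6a (edgeR adjusted p = 0.217), and without KO-739 they were 0.36 and 0.08. Of the 54 counts of the untested neighbour Serpinb1c, 50 came from KO-739. Skeletal muscle markers summed to 3952 CPM in KO-739, whereas KO-694, KO-695, KO-696 and KO-738 held 32.5 to 50.7 CPM; sums were 22.7 to 84.7 CPM in HET libraries and 36.4 to 74.6 CPM in WT. None of the 5 tested of the 6 muscle markers was called, and the part of muscle in these levels was not tested.

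**Figure D4:**
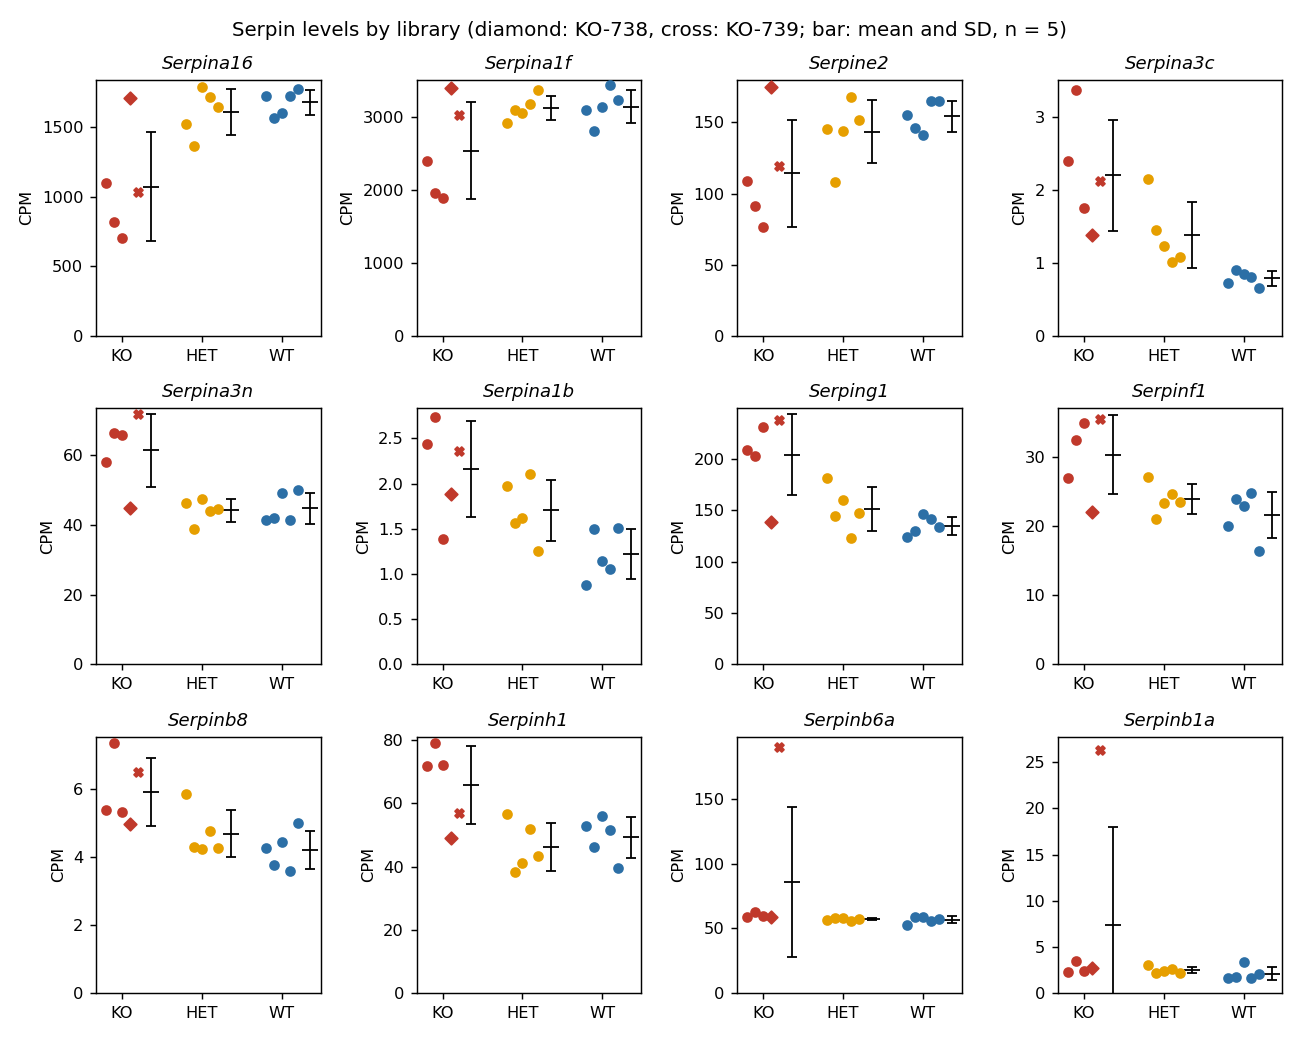
CPM of 12 serpins in each library, with KO left, HET in the middle and WT right; diamonds are KO-738, crosses KO-739, and bars give the mean and SD (n = 5), cut at 0 for Serpinb1a in KO. KO-738 sits among the WT values for Serpina16 (1705 CPM), Serpina1f (3397 CPM), Serpina3n (44.9 CPM), Serping1 (139 CPM), Serpinf1 (22.1 CPM) and Serpinh1 (49.2 CPM).

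In HET against WT, edgeR called 0 serpins and 0 genes (0%) in either direction. At an unadjusted p under 0.05 there were 2 serpins higher (Serpina1b and Serpina3c) and 1 lower (Serpinb1b), against 2.21% and 2.2% of all genes, or 854 genes (4.4%). DESeq2 called 0 serpins and 1 gene, and limma voom called 0 serpins and 0 genes. Serpina3c had a log2 fold change of 0.82 ± 0.26 (edgeR adjusted p = 0.981) and was the 1 serpin with all HET libraries above all WT libraries, as in 0.717% of all genes; 0 serpins had all HET libraries below all WT libraries, as in 0.325% of all genes. Serpina1b averaged 1.7 ± 0.344 CPM in HET and 1.22 ± 0.278 CPM in WT (SD, n = 5 each), with a log2 fold change of 0.49 ± 0.21 (edgeR adjusted p = 0.981). For the abundant pair the values were -0.06 ± 0.18 for Serpina16 and -0.01 ± 0.13 for Serpina1f.

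In KO against HET, edgeR called 1 serpin higher and 0 lower, where 1.61% and 0.351% of all genes were (1.96% in either direction). The 1 was Serpina3n, with 58, 66.4, 65.9, 44.9 and 71.7 CPM in the KO libraries and 46.3, 38.7, 47.4, 43.9 and 44.6 CPM in the HET libraries, a log2 fold change of 0.48 ± 0.11 (edgeR adjusted p = 0.0345). That call held in 8 of 15 fits without 1 library, the exceptions being those without KO-695, KO-696, KO-739, HET-693, HET-715, HET-718 or HET-735. At an unadjusted p under 0.05, 11 serpins were higher and 4 lower, where 11.5% and 9.23% of all genes were (20.8% in either direction). DESeq2 called 3 serpins higher and 2 lower, and 877 and 365 of all genes. The limma voom fit called 5 serpins higher and 4 lower, and 1065 and 842 of all genes. Serpina16 had -0.58 ± 0.18 (edgeR adjusted p = 0.0862), Serping1 0.43 ± 0.12 (edgeR adjusted p = 0.0762) and Serpina3c 0.66 ± 0.24 (edgeR adjusted p = 0.13). Serpina3i and Serpinb6a were higher in KO without overlap with HET, as 2.18% of all genes were, and 0 serpins were lower without overlap, as 1.42% of all genes were. This comparison and that of HET with WT each share libraries with that of KO with WT, so their values are not independent of it.

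Calls depended on KO-738, over all genes as well as for the serpins. Without it, 9 serpins were higher and 4 lower in KO against WT, where 1905 and 1018 of 19539 genes were, against 853 and 310 of 19388 with it. In KO against HET 7 serpins were higher and 5 lower, where 1546 and 897 genes were, against 312 and 68 with it. The 9 include the 6 above, Serpina3f and Serpinh1, and the 4 are Serpina16, Serpina1f, Serpinb12 and Serpine2. With the number range as a term, 1 serpin (Serpina3c) was called in KO against WT. Among animals numbered 700 and above, where KO keeps 2 libraries, KO-738 and KO-739, 0 were. Calls over all genes fell in the same fits, to 157 higher and 20 lower with the term and to 0 at 700 and above. The range and the genotype are partly confounded, since no WT animal is numbered below 700, so their effects cannot be fully told apart.

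PLAG1 binds a bipartite motif, written here as GAGGC or GGGGC, a gap of 6 to 8 bases and GGG. It was searched on both strands in the 250 bases before each RefSeq start, and overlapping matches were allowed. Windows were at hand for 54 of the 64 serpins (63 windows). The motif was present in 2 of the 63 (3.17%), against 19.9% of 32851 windows of all genes. Among the 27 windows of tested serpins it was present in 2 (7.41%). The difference between these shares was not tested. The 6 windows at hand for members called by edgeR in KO against WT came from 6 genes and held no match. Not every called member had a window. The serpins with a match were Serpine2 and Serpinh1. With all libraries in the fit edgeR called neither, whereas DESeq2 and limma voom called Serpinh1 higher in KO against WT. The windows of Serpine2 and Serpinh1 are shown with the matches in capitals, chr1:79858666-79858915 and chr7:99353240-99353489 (both minus strand). Beside them is the stretch before Serpina16, chr12:103676842-103677012 (minus strand), cut to bases outside the annotated gene and without a match. A match is a description of the letters and shows no binding.
Serpine2: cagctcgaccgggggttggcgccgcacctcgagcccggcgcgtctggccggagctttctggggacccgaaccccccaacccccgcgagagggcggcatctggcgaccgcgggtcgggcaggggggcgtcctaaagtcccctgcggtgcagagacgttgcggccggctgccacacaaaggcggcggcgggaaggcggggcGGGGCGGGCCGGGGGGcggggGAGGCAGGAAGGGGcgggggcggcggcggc
Serpinh1: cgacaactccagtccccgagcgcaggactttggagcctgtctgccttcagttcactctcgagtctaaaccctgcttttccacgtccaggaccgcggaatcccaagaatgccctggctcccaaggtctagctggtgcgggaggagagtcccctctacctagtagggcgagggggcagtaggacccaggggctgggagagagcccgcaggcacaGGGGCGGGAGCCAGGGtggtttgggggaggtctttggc
Serpina16: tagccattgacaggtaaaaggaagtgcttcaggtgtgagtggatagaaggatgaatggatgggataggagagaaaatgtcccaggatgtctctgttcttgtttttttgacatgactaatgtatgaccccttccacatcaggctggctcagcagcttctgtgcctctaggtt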

How the data were processed

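The authors deposited whole-number read counts, 1 row per NCBI Gene ID. Per the submitters' processing notes, tools named are HISAT2 2.0.5, FastQC, Subread 1.4.6p5 and its featureCounts, and the genome build is GRCm38.p6; libraries were stranded mRNA, per the labels' protocols. The strand setting and annotation release are not given in the sources used here, so overlapping, antisense and near-copy genes are uncertain. Of 41591 IDs, 40290 (96.9%) were named from a RefSeq gene table of GRCm38.p6; the others held at most 0.208% of a library's counts.

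Counts were tested with edgeR 4.0.16 in R 4.3.3 (TMM, filterByExpr, robust quasi-likelihood test) in 1 fit of 15 libraries (a mean for each genotype; 12 residual degrees of freedom); p-values are two-sided and Benjamini-Hochberg adjusted over 19388 genes. The biological coefficient of variation was 16.3%. Errors of log2 fold changes are SE, computed as the size of the log2 fold change over the square root of F. CPM used TMM library sizes, and RPKM used GENCODE M21 union exon lengths (63 of 64 members). Replicates were compared by chi-square per degree of freedom, which ran from 18.4 to 85.77 in KO, 5.13 to 28.92 in HET and 5.75 to 17.77 in WT. No 2 libraries of the same genotype were thus alike within counting noise. Alternatives were RLE or no scaling factors, DESeq2 1.42.0, limma 3.58.1 voom with quality weights, 2 other filters, the 2 genotypes alone, the animal number range, and leaving out libraries.

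Named members are those called in any comparison, the 10 most abundant, the 2 most abundant of each clade, and those with a log2 fold change over 1 in KO against WT. Named beside them, after their values were seen, are Serpina3a, Serpina3b, Serpina3f, Serpina3g, Serpina3h, Serpina3i, Serpina3m, Serpina5, Serpina7, Serpina1d, Serpinb1c, Serpinb1b and Serpinb12. A member that this rule takes is not reported here. The members and gene lists were chosen with earlier results of these data known. Plots used Python 3.11.15 and matplotlib 3.10.9.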

Additional observations from a re-analysis of the deposited data

Results flagged for a closer look

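In groups of 5 libraries, the highest or lowest value was compared with its nearest neighbour, as a share of the whole range, in 55 groups of named serpins, and 5 passed Dixon's critical value of 0.71. Chance alone passes about 1 in 20 groups. Serpinb1a stood at 26.3 CPM in KO-739, with the other KO libraries at 2.24 to 3.44 CPM, and at 3.32 CPM in WT-720, with the other WT libraries at 1.64 to 2.04 CPM. Serpinb6a stood at 190.2 CPM in KO-739, with the others at 58.4 to 62.7 CPM. Serpinf2 was lowest in the same library, at 107 CPM, with the other KO libraries at 143 to 155 CPM. Serpinc1 stood at 0.493 CPM in HET-715, with the other HET libraries at 0.109 to 0.181 CPM.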

How the results depend on the processing

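In KO against WT the 6 serpins called higher became 8 with DESeq2, 8 with limma voom, 2 in a fit of the 2 genotypes alone, 1 with the number range as a term and 0 among animals numbered 700 and above, where the 853 genes called higher became 1313, 1020, 246, 157 and 0 in the same fits. The serpins called higher ran from 1 to 9 when 1 library was left out. The 1 called lower became 2 with limma voom, 4 without HET-693 and KO-738, and 0 with no filter on low counts, in the fit of 2 genotypes, with the range as a term and at 700 and above; it ran from 0 to 4 when 1 library was left out. In KO against HET the 1 called higher became 3 with DESeq2, 5 with limma voom, 4 without HET-693 and KO-738, and 0 in the fit of 2 genotypes and at 700 and above, and ran from 0 to 7 when 1 library was left out. The 0 called lower became 2 with DESeq2, 4 with limma voom and 4 without HET-693 and KO-738, and ran from 0 to 5. The cause was not tested. The counts of 0 in HET against WT stayed 0 in all 25 alternatives.

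Signs turned for small values. At 700 and above, the log2 fold change of KO against WT was 0.04 for Serpina1f, 0.08 for Serpinb6b and -0.18 for Serpinf2; with the range as a term it was -0.08 for Serpinf2 and 0.06 for Serpini1. That of HET against WT was 0.12 with the term and 0.01 at 700 and above for Serpina16, and 0.02 for Serpina3n without HET-693 and KO-738. Leaving out 1 library gave -0.04 to 0.10 for Serpinf2 and -0.10 to 0.02 for Serpini1 in KO against WT, and -0.07 to 0.02 for Serpina3n in HET against WT. Of the other log2 fold changes of named serpins under alternatives, 654 kept sign and call, 24 gained a call and 81 lost one; all 189 clade sums moved by less than 1 SD. No paired analysis was possible because the genotypes share no replicate numbers. Members with few counts, such as Serpinc1 with 112 in all, are limited by depth.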
